A study of Mus musculus with 67 samples.

Results

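A set of 8 RNAs laid down in the growing mouse oocyte was followed through preimplantation development: the growth factors Gdf9 and Bmp15, the zona pellucida genes Zp1, Zp2 and Zp3, the oocyte-secreted protein gene Oosp1, the receptor gene Kit and the oocyte linker histone gene H1foo. They were taken by symbol from the deposited expression table, which held all 8 of them among 26414 genes. Their RNA was measured by SMART-seq2, a full-length method for single cells, in 67 libraries of C57BL/6 embryos made by in vitro fertilisation from females of 6 weeks and males of 10 weeks. The light group was exposed at the 2-cell stage to 5000 lx for 6 h and then cultured without light, and the control group was kept at 0 lx. Control and light groups numbered 7 and 6 libraries of 2-cell, 6 and 8 of 4-cell and 4 and 8 of 8-cell embryos, 13 and 6 of morulae and 3 and 6 of blastocysts. The question addressed by the series is how the RNA of the embryo responds to light, and for these genes how far the maternal RNAs were lost at each stage in both conditions.

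The egg stores RNA while it grows and is largely silent from meiotic maturation until the embryo turns on its own genome, in the mouse mainly at the 2-cell stage. Over this time most of the stored RNA is cleared. GDF9 and BMP15 are secreted proteins of the TGF-beta family that act on the granulosa cells around the oocyte, ZP1, ZP2 and ZP3 build the coat to which sperm bind, KIT is the receptor for the Kit ligand of granulosa cells, and H1FOO packs oocyte chromatin before the somatic linker histones take its place.

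Sequences of 3 members are shown because the results below turn on these RNAs. The stretches are the 250 bases before the annotated transcription start in RefSeq (GRCm38.p6), read 5′ to 3′ on the strand of the gene, with every CANNTG in capitals. CANNTG is the E-box, the motif read by basic helix-loop-helix proteins such as FIGLA, which is known to act on zona pellucida promoters. It is its own reverse complement in its fixed letters, so that one strand covers both. Zp3 (chr5:135979855-135980104, plus strand) held 3 matches, Bmp15 (chrX:6320725-6320974, minus strand) 1 and Oosp1 (chr19:11691052-11691301, minus strand) 5.
Zp3: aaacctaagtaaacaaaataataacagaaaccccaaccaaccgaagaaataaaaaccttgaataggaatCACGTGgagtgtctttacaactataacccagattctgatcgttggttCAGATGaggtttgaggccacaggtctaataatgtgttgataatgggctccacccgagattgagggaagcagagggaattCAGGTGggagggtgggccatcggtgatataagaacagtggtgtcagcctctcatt
Bmp15: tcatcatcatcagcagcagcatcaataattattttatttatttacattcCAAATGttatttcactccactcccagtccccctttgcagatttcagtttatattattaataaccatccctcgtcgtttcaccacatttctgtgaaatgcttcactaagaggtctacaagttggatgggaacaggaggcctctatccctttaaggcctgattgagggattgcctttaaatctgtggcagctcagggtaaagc
Oosp1: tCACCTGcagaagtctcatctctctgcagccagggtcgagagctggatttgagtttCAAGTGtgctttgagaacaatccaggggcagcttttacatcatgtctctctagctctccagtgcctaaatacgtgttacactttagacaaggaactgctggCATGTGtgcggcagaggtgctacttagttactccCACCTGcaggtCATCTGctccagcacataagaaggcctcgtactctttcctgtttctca
Of 32851 RefSeq promoters of the same length, 66.2% held at least 1 CANNTG, 12.2% held 3 or more and 1.15% held 5 or more. CACGTG, the match of Zp3 that begins 181 bases before the start, was found in 6.02% of them. The H1foo promoter held 1 match and that of Kit held none, and Gdf9, Zp1 and Zp2 had no entry in the promoter table. A match describes the letters in this window and not a bound site.

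In GENCODE M21 (GRCm38) none of the 8 genes overlaps another annotated gene. Gdf9 lies at chr11:53431023-53437904 (plus strand, 2 exons), Bmp15 at chrX:6314107-6320721 (minus, 2 exons) and Oosp1 at chr19:11667460-11691150 (minus, 5 exons). The zona genes lie on 3 chromosomes, Zp1 at chr19:10914287-10920632 (minus, 12 exons), Zp2 at chr7:120126772-120145291 (minus, 18 exons) and Zp3 at chr5:135980099-135988624 (plus, 8 exons). Kit lies at chr5:75574916-75656722 (plus, 21 exons) and H1foo at chr6:115944938-115950236 (plus, 5 exons). On the minus strand the Oosp1 model begins at 11691150, inside the RefSeq window shown above. The Oosp1 matches at -93, -59 and -48 from the RefSeq start therefore fall within this gene model. All values are per gene, over exons.

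The 3′ ends of the transcripts differed more than their coding parts. In the same annotation the untranslated 3′ end of Zp3 is 13 bases long, that of Zp1 34 and that of Zp2 49, against 1523 for Bmp15 and 2177 for Kit. Gdf9 (360 bases), Oosp1 (230) and H1foo (153) lie between them. The letters TTTTAT, which make up a cytoplasmic polyadenylation element in stored RNAs, were searched on the transcript strand in the last 150 bases of each untranslated end, and were found in Gdf9, H1foo and Kit. A stretch of 30 bases with the match in capitals, together with AATAAA where it falls inside, is given for the first 2 of these, Gdf9 at chr11:53437862-53437891 and H1foo at chr6:115950165-115950194, both on the plus strand.
Gdf9: gtggTTTTATgtgacggaagAATAAActgt
H1foo: aagcTTTTATtgtctaataagctgtcacaa
TTTTAT was present in 18.4% and AATAAA in 66.2% of 18289 windows of 150 bases. These came from protein-coding genes whose untranslated end is at least that long. The ends of Zp1, Zp2 and Zp3 are shorter, so that these shares do not apply to them. Zp3 had neither in its 13 bases.

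The values are normalised reads, that is the reads of a gene after division by 1 scaling factor for each library. Libraries held between 836011 and 8551674 reads, of which 54.0% to 89.3% fell on 2 genes that carry ribosomal RNA sequence, CT010467.1 and Gm42418. This share was larger in later stages, with a median of 61.4% in control 2-cell and 79.1% in control morula libraries, so that the reads left for all other genes had a median of 1447432 and 995150. The labels number an embryo for each library, while the methods of the study describe cells picked from dissociated embryos, and which libraries share an embryo is not given. Reads on 4 Y-linked genes were 0 or 1 in all 13 control morula, all 4 control 8-cell and all 3 control blastocyst libraries, and at least 36 in all 8 light 4-cell and 45 in all 6 light blastocyst libraries. Genes of the 2-cell stage and, in blastocysts, of the trophectoderm, the outer layer of that stage, were present where the labels place them, but not only there. The 8 trophectoderm genes summed to 461.8 to 6867 in blastocysts and to 60.7 to 266.5 at the 2-cell stage. They summed to 323.8 to 636.4 in control 4-cell and to 219.4 to 1746 in control morula libraries, which overlaps the blastocysts. The 8 genes of the 2-cell stage summed to 344.7 to 877.8 in control and 57.8 to 1839 in light 2-cell libraries. They summed to 36.3 to 304.0 in control 8-cell libraries and to at most 161.9 in light 4-cell libraries. The p-values below treat every library as independent. A gene was called at an adjusted p (Benjamini-Hochberg, limma over all genes tested) under 0.05 with a fold change of at least 2, and all log2 differences are of values with 1 added, which understates the change of low genes.

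In control embryos 7 of the 8 RNAs were lost almost entirely between the 2-cell and the 4-cell stage, and Zp3 was not. All 7 were called lower, where 32.3% of the 17725 genes tested were called lower and 13.8% higher. The mean left at the 4-cell stage, as a percentage of the control 2-cell mean, was 0.677% for Oosp1, 0.923% for Bmp15, 6.55% for Kit, 7.87% for H1foo, 8.03% for Gdf9, 8.68% for Zp2 and 9.30% for Zp1. For each of these 7 genes the highest 4-cell library lay below the lowest 2-cell library, which held for 16.0% of all genes tested.

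**Figure D1:**
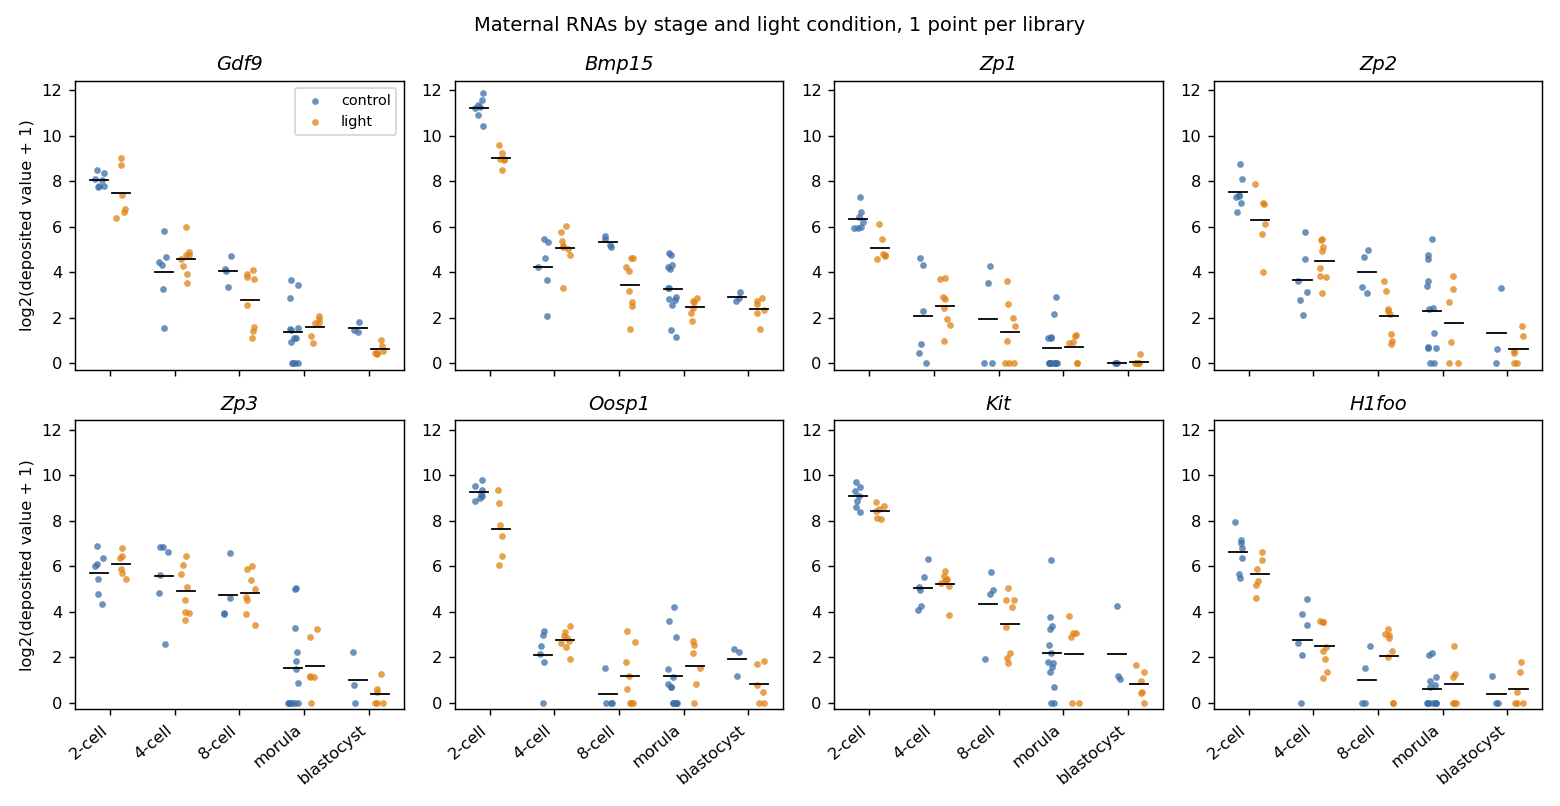
Level of each of the 8 RNAs in every library, as log2 of the normalised reads plus 1 (y axis), by stage (x axis), for control (blue) and light (orange); each point is 1 library and black bars are group means. Between the 2-cell and the 4-cell stage every panel drops except that of Zp3 in control embryos, which drops at the morula, and at the 2-cell stage the 6 light libraries of Bmp15 lie below the 7 control libraries.

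Bmp15 was the most abundant of the 8 in control 2-cell embryos. Its normalised reads there were 1355 at the lowest, 2434 at the median and 3780 at the highest, and at the 4-cell stage 3.28, 20.6 and 43.5. The difference on the log2 scale was -6.99 ± 0.45 (SE, adjusted p = 2.19e-10). The lowest 2-cell and the highest 4-cell library lay far apart. Gdf9, its partner in the signal to granulosa cells, lay between 213.8 and 361.4 with a median of 262.8 at the 2-cell stage and between 1.97 and 54.6 with a median of 19.7 at the 4-cell stage. It fell by 4.04 ± 0.54 on the log2 scale (adjusted p = 3.20e-06). Per kilobase of exon, which allows levels of different genes to be compared, control 2-cell means were 818.9 ± 254 (SD, n = 7) for Bmp15, 636.2 ± 149 for Oosp1, 131.8 ± 27.9 for Gdf9, 95.1 ± 57.6 for H1foo, 74.1 ± 40.9 for Zp2, 62.5 ± 19.9 for Kit, 45.0 ± 25.7 for Zp3 and 42.9 ± 17.3 for Zp1. Bmp15 and Oosp1 stood above the other 6 by more than their spread. The difference between Bmp15 and Oosp1, and those between neighbours from Gdf9 downwards, were smaller than the SD of at least 1 of the pair. The length used counts every annotated exon of a gene, which for Kit is 8911 bases against 5214 in its main transcript. The place of Kit in this order depends on that choice.

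The 3 zona pellucida RNAs did not share 1 course. Zp2, whose protein is the part of the coat that sperm recognise, lay between 98.4 and 425.3 in control 2-cell libraries (median 161.7) and between 3.42 and 53.7 in control 4-cell libraries (median 9.61), a difference of -3.83 ± 0.56 (adjusted p = 1.05e-05). Zp1, which cross-links the filaments of the coat, lay between 59.7 and 155.3 (median 71.9) and then between 0 and 23.6 (median 2.37), a difference of -4.26 ± 0.73 (adjusted p = 6.32e-05). Zp3, the partner of ZP2 in those filaments, lay between 19.4 and 117.4 (median 62.5) at the 2-cell stage and between 4.94 and 114.4 (median 72.1) at the 4-cell stage. These ranges overlapped nearly whole, and the difference was -0.15 ± 0.65 (adjusted p = 0.864). The number of Zp3 reads per Zp2 read, which no scaling of the library can alter, had a median of 0.276 (0.155 to 0.508) in the 7 control 2-cell and of 9.36 (0.433 to 16.4) in the 6 control 4-cell libraries. Control 4-cell libraries 1 and 3, with ratios of 0.508 and 0.433, were at the edge of the 2-cell range or inside it, and the other 4 lay between 4.93 and 16.4. In light libraries the ratio had medians of 0.800 in 2-cell and 1.30 in 4-cell embryos, with ranges that overlapped. Control 4-cell library 3 is also the one without which the count of all genes called between light and control at the 4-cell stage moved from 218 to 771.

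Oosp1, which encodes a small secreted oocyte protein, was lost most completely. Its 7 control 2-cell libraries held 457.3 to 872.8 normalised reads (median 581.4) and the 6 control 4-cell libraries 0 to 7.82 (median 4.00), a difference of -7.16 ± 0.50 (adjusted p = 5.16e-10). Kit lay between 335.3 and 820.6 (median 544.2) and then between 15.7 and 77.3 (median 31.4), a difference of -4.03 ± 0.41 (adjusted p = 7.77e-08). H1foo lay between 43.2 and 246.8 (median 110.4) and then between 0 and 22.2 (median 7.40), a difference of -3.87 ± 0.67 (adjusted p = 6.99e-05). In none of the 3 genes did the stages overlap.

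After the 4-cell stage the control embryos held low and uneven levels. None of the 8 members was called between the 4-cell and the 8-cell stage, where limma called 5.17% of 13425 genes lower and 1.14% higher (694 and 153 genes, which became 71 and 195 when libraries were scaled by the median ratio). No member had an unadjusted p under 0.05, and edgeR on the reads called 0 as well. Oosp1 held reads in 5 of 6 libraries at the 4-cell and in 1 of 4 at the 8-cell stage. From the 8-cell stage to the morula 3 members were called lower, against 7.49% of 14966 genes called lower and 6.84% higher (1121 and 1024 genes, 1565 and 893 by the median ratio). They were Zp3 (-3.23 ± 1.00, adjusted p = 0.0290), Gdf9 (-2.70 ± 0.81, adjusted p = 0.0242) and Bmp15 (-2.07 ± 0.70, adjusted p = 0.0473). With a pseudocount of 0.1, or with edgeR on the reads, 0 of the 8 were called. The calls lay near the threshold, and each was lost when any 1 of several libraries was left out. In those fits the difference ran from -2.49 to -2.71 for Gdf9, from -2.62 to -3.50 for Zp3 and from -1.90 to -2.15 for Bmp15. Gdf9 was no longer called without control 8-cell library 1, 2 or 4 (adjusted p = 0.0641 to 0.0770 in limma) and Zp3 without library 2, 3 or 4 (0.0507 to 0.147). The Bmp15 call was lost without any of the 4 and without control morula 1, 2, 6, 9, 10, 14, 16 or 18 (0.0547 to 0.136).

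Zp3 was still present in every control 8-cell library, with 13.9, 14.2, 23.2 and 93.7 normalised reads, and its mean was then 61.0% of the 2-cell mean. That share depended on the scale, and was 127% on reads scaled to the total outside the 2 ribosomal genes. Those genes took a median of 75.2% of reads in control 8-cell and 61.4% in control 2-cell libraries. In the 13 control morulae Zp3 ranged from 0 to 31.9 with a median of 0.814, and 7 of the 13 held a read. Libraries 9 and 26, with 31.0 and 31.9, lay inside the 8-cell range. No member was called between morula and blastocyst in control embryos, where limma called 5.11% of 14972 genes lower and 6.75% higher (765 and 1010 genes, 727 and 1541 by the median ratio), with 0 members at an unadjusted p under 0.05 and 0 called by edgeR. In the 3 control blastocysts no library held a read of Zp1, and Bmp15 was left at 6.31, 5.57 and 7.71 normalised reads. Reads of Bmp15 were found in all 67 libraries of the series, down to 1.22 normalised reads in a control morula.

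**Figure D2:**
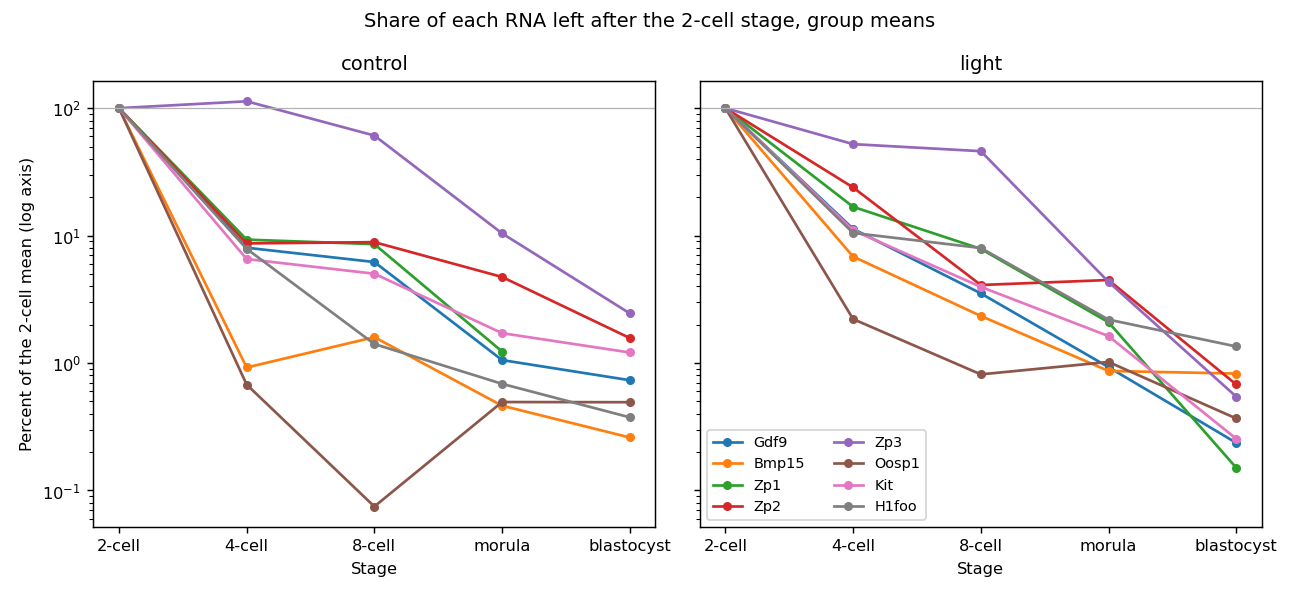
Mean of each RNA as a percentage of its own 2-cell mean in the same condition (y axis, log scale) at the 5 stages (x axis), control on the left and light on the right; Zp1 in control blastocysts, listed at 0, is not drawn. At the 4-cell stage the control lines of Oosp1 and Bmp15 lie below 1%, 5 others lie between 6.55% and 9.30%, and Zp3 lies at 113%. On reads scaled to the total outside the 2 ribosomal genes the shares at the 8-cell stage were larger. In control embryos that of Zp3 was 127% instead of 61.0%, and that of Zp2 was 19.2% instead of 8.88%.

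In embryos exposed to light all 8 RNAs were called lower at the 4-cell than at the 2-cell stage, against 29.0% of 17258 genes called lower and 7.43% called higher (5010 and 1283 genes, 4076 and 2004 by the median ratio). The median difference of all genes was -0.56 here, and -0.30 by the median ratio. The means left were 2.21% for Oosp1, 6.84% for Bmp15, 10.5% for H1foo, 11.0% for Kit, 11.3% for Gdf9, 16.8% for Zp1, 23.9% for Zp2 and 52.2% for Zp3. Differences on the log2 scale ran from -4.88 ± 0.50 for Oosp1 (adjusted p = 1.31e-08) and -3.96 ± 0.36 for Bmp15 (adjusted p = 1.06e-09) to -1.81 ± 0.52 for Zp2 (adjusted p = 0.00695) and -1.18 ± 0.46 for Zp3 (adjusted p = 0.0417). Zp2 and Zp3 overlapped between these stages, and the other 6 lay lower without overlap, which held for 11.2% of all genes. The Zp3 call was lost, leaving 7 of the 8, with a pseudocount of 0.1 (adjusted p = 0.0525 in limma), with no filter (0.0592), by the median ratio (-0.80, 0.147), on reads scaled to the total outside the 2 ribosomal genes (-0.85, 0.120), in 1 fit over all libraries (0.173) and in edgeR (-0.53, 0.370). It was also lost without light 2-cell library 10, 14 or 15 or light 4-cell library 1, 5, 7 or 14 (adjusted p = 0.0660 to 0.0904 in limma).

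Further, 4 RNAs fell again between the 4-cell and the 8-cell stage in light embryos, where 9.94% of 15178 genes were called lower and 0.619% higher (1508 and 94 genes, 220 and 158 by the median ratio). The median difference of all genes was -0.45, and -0.03 by the median ratio. Zp2 lay between 7.60 and 43.3 (median 23.1) in the 8 light 4-cell libraries and between 0.797 and 11.2 (median 3.73) in the 8 light 8-cell libraries, a difference of -2.38 ± 0.55 (adjusted p = 0.00407). Kit differed by -1.78 ± 0.49 (adjusted p = 0.0151), Gdf9 by -1.81 ± 0.54 (adjusted p = 0.0237) and Bmp15 by -1.64 ± 0.49 (adjusted p = 0.0242). These calls depended on the scale. The 2 ribosomal genes took a median of 62.1% of reads in light 4-cell and 70.4% in light 8-cell libraries, and 0 of the 8 were called on reads scaled to the total outside those genes, by the median ratio or by edgeR. The differences kept their sign there, with Zp2 at -1.97 on the total outside the ribosomal genes (adjusted p = 0.0549 in limma) and Kit, Gdf9 and Bmp15 at -1.29, -1.35 and -1.15. The call was also lost for Gdf9 without light 4-cell library 14 (-1.61) and for Bmp15 without light 4-cell library 1 or 11 or light 8-cell library 10 (-1.37 to -1.54). Oosp1 was called in addition without light 8-cell library 6 or 11 (adjusted p = 0.0435 and 0.0328 in limma). From the 8-cell stage to the morula Zp3 alone of the 8 was called in light embryos (-3.24 ± 0.60, adjusted p = 0.000592), against 7.22% of 14414 genes called lower and 4.61% higher (1040 and 665 genes, 874 and 835 by the median ratio). Its 8 light 8-cell libraries lay between 9.51 and 63.1 (median 27.0) and its 6 light morulae between 0 and 8.40 (median 1.24), without overlap, which held for 2.37% of genes. Between morula and blastocyst 7 members were tested and limma and edgeR both called 0, against 15.7% of 13553 genes called lower and 5.02% higher by limma (2131 and 681 genes, 820 and 1339 by the median ratio). Only Zp3 had an unadjusted p under 0.05 there.

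At the 2-cell stage, the stage of the exposure, Bmp15 and Oosp1 were lower in light than in control embryos. These were 2 of the 8 members, against 4.96% of 18532 genes called lower and 5.53% called higher. Bmp15 held 603.8, 505.9, 497.1, 358.6, 480.5 and 781.1 normalised reads in light libraries 9, 10, 12, 14, 15 and 16, and 2434, 3078, 3780, 2352, 2605, 1355 and 1935 in control libraries 8, 9, 10, 11, 12, 17 and 24. Every light library lay below every control library, which held for 2.49% of genes tested. The means were 537.8 ± 142 (SD, n = 6) and 2506 ± 779 (n = 7), a 4.66-fold difference and -2.19 ± 0.24 on the log2 scale (adjusted p = 1.00e-06 in limma). The time between exposure and collection is not given in the sources used here.

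Oosp1 held 219.4, 159.0, 65.2, 87.1, 647.3 and 435.2 normalised reads in the same 6 light libraries, and 457.3 to 872.8 (median 581.4) in the 7 control libraries. Light libraries 9, 10, 12 and 14 lay below all controls, library 16 just below them and library 15 among them. The difference was -1.62 ± 0.38 (adjusted p = 0.00492), and in 1 fit over all 67 libraries it was not called (adjusted p = 0.0655 in limma). Both Bmp15 and Oosp1 were called with each of the 13 libraries left out in turn. Zp1 (-1.28 ± 0.43, adjusted p = 0.0501) and Zp2 (-1.23 ± 0.46, adjusted p = 0.0822) did not pass, although Zp1 was called by the median ratio (adjusted p = 0.0351), on the total outside the ribosomal genes (0.0415) and by edgeR (0.0351). H1foo (-0.98, 95% interval -1.89 to -0.07, adjusted p = 0.161), Kit (-0.63, interval -1.17 to -0.09, adjusted p = 0.122) and Gdf9 (-0.55, interval -1.31 to 0.20, adjusted p = 0.362) did not either, and Zp3 had a value of 0.40 (interval -0.52 to 1.32, adjusted p = 0.629). With Bmp15 reduced, its share of the summed normalised reads of the 8 members was 34.6% on average in light (21.2% to 45.1%) and 56.1% in control 2-cell libraries (45.4% to 66.6%).

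**Figure D3:**
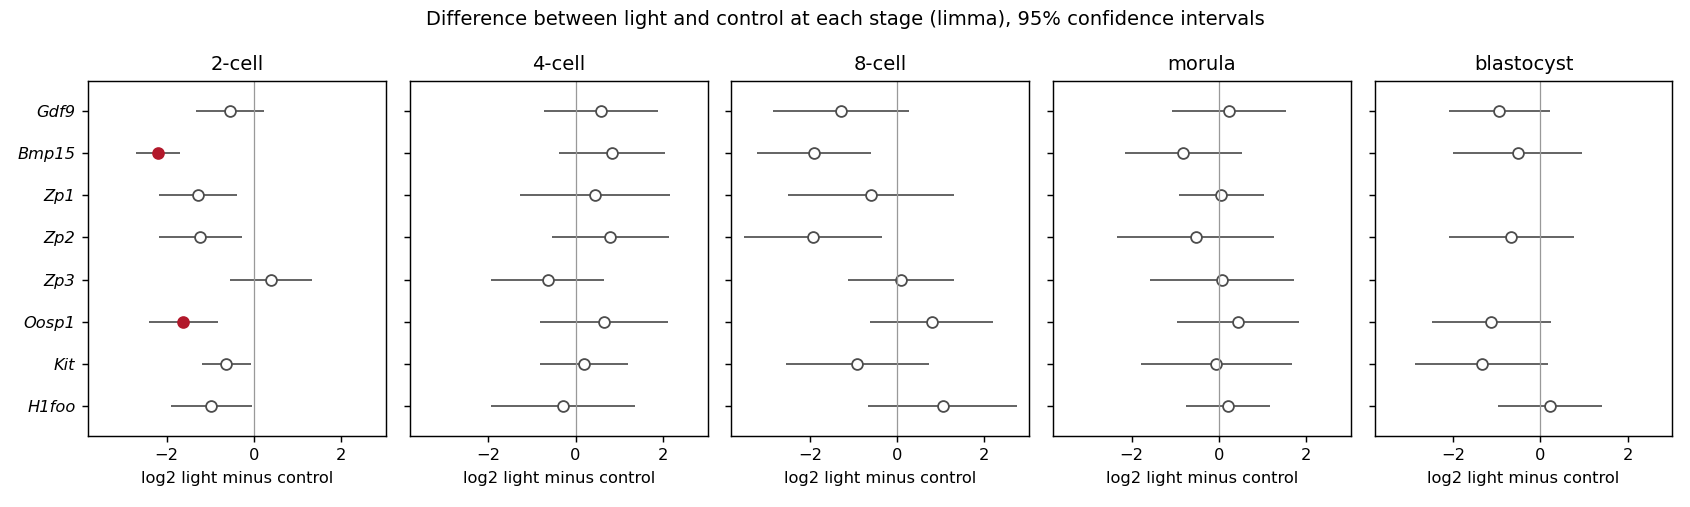
Difference between light and control (x axis, log2 of normalised reads plus 1) for each RNA (y axis) at the 5 stages, with 95% confidence intervals from limma; filled red points passed the threshold, open points did not, and untested genes are left blank. Bmp15 and Oosp1 at the 2-cell stage are the filled points, at -2.19 and -1.62.

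The 6 light 2-cell libraries were not alike. Libraries 15 and 16 held 417.1 and 513.0 normalised reads of Gdf9, above every control library, while libraries 9, 10, 12 and 14 held 98.7, 169.6, 110.2 and 82.1, below every control library. The same 2 libraries held the most Zfp352, a gene switched on at the 2-cell stage, with 363.7 and 275.9 against 26.7 to 57.0 in the other 4 light and 71.7 to 203.5 in the 7 control libraries. The summed level of 8 such 2-cell stage genes (the Zscan4, Tcstv and Usp17 families with Zfp352), all with reads in both groups, was 344.7 to 877.8 in control libraries and 124.2, 169.6, 57.8, 606.7, 1839 and 738.3 in light libraries 9, 10, 12, 14, 15 and 16. Library 16 was also the shallowest of the series, with 836011 reads. The part that these differences play in the results was not tested.

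Bmp15 did not follow that division. In libraries 15 and 16 it lay at 480.5 and 781.1, against 358.6 to 603.8 in the other 4 and at least 1355 in the controls. The number of Bmp15 reads per Gdf9 read was 6.34 to 14.0 in control and 1.15 to 6.12 in light libraries, without overlap, with 1.15 and 1.52 in libraries 15 and 16 as the lowest. With both of them left out, a choice made after their values were seen and one that removes the highest Gdf9 values, Bmp15 differed by -2.31, Oosp1 by -2.34, Zp2 by -1.80, Zp1 by -1.63 and Gdf9 by -1.24 between the 4 remaining light and the 7 control libraries, and 5 members were called (adjusted p from limma between 3.50e-06 and 0.0133). Leaving out library 16 alone added Zp1 (-1.35) and Zp2 (-1.54) to the called members, and leaving out library 15 alone added Zp1 (-1.49).

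**Figure D4:**
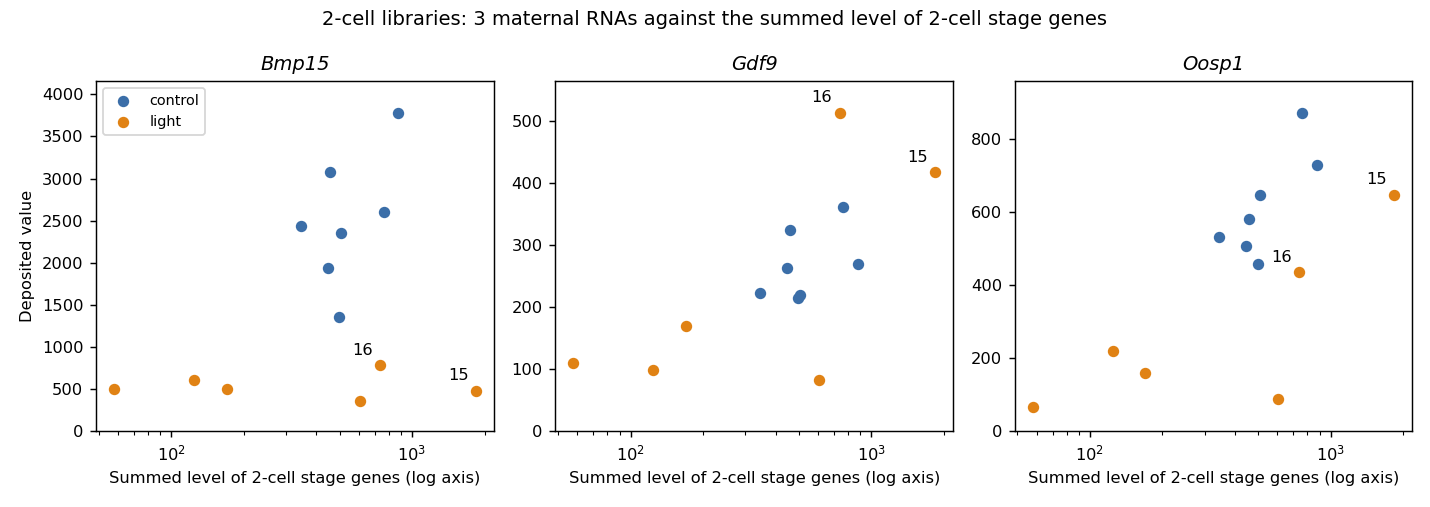
Normalised reads of Bmp15, Gdf9 and Oosp1 (y axes) against the summed normalised reads of 8 genes of the 2-cell stage (x axis, log scale) in the 7 control (blue) and 6 light (orange) 2-cell libraries. Light libraries 15 and 16, labelled by number, lie with or above the controls for Gdf9, and for Bmp15 all 6 light libraries lie at 781.1 or less and all controls at 1355 or more.

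Genes of cumulus or granulosa cells, which surround the oocyte and could remain on the embryo, were summed as a check. The sum over the 9 found of 12 was 33.1 to 111.5 in control and 72.1 to 243.8 in light 2-cell libraries, most of it Amhr2, with means of 54.0 and 128.5. Star had a mean of 10.9 in control and 4.64 in light libraries and Foxl2 of 1.825 and 0.9425, the reverse direction of Amhr2. Other defining genes were at or near 0: Cyp11a1 and Hsd3b1 held no read in control libraries and a mean of 0.556 and 0.834 in light ones, Fshr had a mean of 0.394 and 0, and Cyp19a1 of 0.429 and 0.580. Ptgs2 had a mean of 0.256 in control and 2.77 in light libraries. Tnfaip6 had a mean of 0.788 in control and 15.6 in light libraries, and reached 52.6 in a light and 5.52 in a control library. Sperm genes summed to at most 10.4 in any 2-cell library. Amhr2 was not confined to the 2-cell stage. Its mean was 56.26 in control and 69.92 in light 4-cell libraries, and 4.515 and 9.446 in control and light morulae. Foxl2, Fshr, Cyp19a1, Cyp11a1 and Hsd3b1 held no read in either 4-cell group, where Star had means of 5.615 in control and 2.416 in light libraries. Whether the Amhr2 reads came from cumulus or granulosa cells was not tested. The part of these cells in the difference was not tested either.

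At the 4-cell stage the difference between the conditions was no longer detectable. In limma 0 of the 8 were called, against 0.333% of 15010 genes called lower and 1.12% higher, 0 had an unadjusted p under 0.05 and edgeR called 0. Bmp15 lay between 8.81 and 65.2 (median 34.1) in light and between 3.28 and 43.5 (median 20.6) in control libraries, a difference of 0.84 with an interval of -0.35 to 2.02. The interval of every member spanned 0, and for Zp1 it reached from -1.26 to 2.14, so that differences of 4-fold could not be told from none.

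The drop from the 2-cell to the 4-cell stage differed for Bmp15. It was 3.03 ± 0.59 log2 units smaller in light than in control embryos (adjusted p = 0.00610, interaction term of limma), and Bmp15 was the only member called, against 1.63% of 20395 genes called higher and 1.45% lower (332 and 295 genes, 611 and 292 by the median ratio). Its 4-cell levels overlapped and its 2-cell levels did not. Oosp1 (2.28 ± 0.71, adjusted p = 0.0649) and Zp2 (2.03 ± 0.80, adjusted p = 0.149) did not pass in limma, and Zp3 had a value of -1.03 ± 0.81 (adjusted p = 0.526). The calls of Zp3 in light and not in control embryos do not show that its loss differed. The interaction of Oosp1 passed without control 4-cell library 3 or light 2-cell library 15 or 16 (2.45 to 2.62). These interactions share their libraries with the comparisons at either stage.

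At the 8-cell stage Bmp15 again lay lower in every light library, with a call that depended on the scale. The 4 control libraries held 36.1, 46.9, 33.7 and 43.4 normalised reads, and the 8 light libraries 4.76, 17.8, 7.94, 15.5, 5.51, 1.86, 23.9 and 23.4. The groups did not overlap, which held for 2.29% of 13861 genes. Reads on the 4 Y-linked genes were at most 1 in all 4 control and in 2 of the 8 light libraries. Bmp15 lies on the X chromosome, and the part of the sex of the embryos, or of cells from a shared embryo, was not tested. The difference of -1.92 ± 0.62 had an adjusted p of 0.0511, which became 0.0292 by the median ratio, 0.0372 on reads scaled to the total outside the 2 ribosomal genes and 0.0749 with edgeR. It also passed without light 8-cell library 6, 8, 11 or 12 (adjusted p = 0.0418 to 0.0497). Limma and edgeR each called 0 of the 8, with Bmp15 and Zp2 at an unadjusted p under 0.05, against 3.30% of genes called lower and 5.91% higher by limma (457 and 819 genes, 625 and 650 by the median ratio). Zp2 lay between 0.797 and 11.2 (median 3.73) in light and at 7.40, 30.9, 9.29 and 24.2 in control libraries (-1.93 ± 0.76, adjusted p = 0.107). The summed 2-cell stage genes were also higher in control 8-cell (36.3 to 304.0) than in control 4-cell libraries (0.852 to 6.57), with a median of 2.24 in light 8-cell libraries, and their part in the result was not tested. The change from the 4-cell to the 8-cell stage differed between light and control by -2.75 ± 0.84 for Bmp15 (adjusted p = 0.0546) and by -2.73 ± 0.95 for Zp2 (adjusted p = 0.0977), the only members at an unadjusted p under 0.05, and limma and edgeR each called 0 of 8, against 2.11% of genes called lower and 1.70% higher. Bmp15 passed there without control 4-cell library 1, 3 or 4, light 4-cell library 13 or light 8-cell library 8, 11 or 12 (-2.83 to -3.01), and Zp2 without control 4-cell library 1 (-3.15).

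In later stages no member was called between light and control, by limma or by edgeR. At the morula limma called 0.821% of 15217 genes lower and 0.355% higher (125 and 54 genes, 140 of each by the median ratio), and no member had an unadjusted p under 0.05. At the blastocyst 6 members were tested, 4.98% of 12743 genes were called lower and 0.353% higher (635 and 45 genes, 155 and 132 by the median ratio), and again none of the 6 had an unadjusted p under 0.05. Gdf9 lay between 0.320 and 1.05 in the 6 light and at 1.58, 1.74 and 2.57 in the 3 control blastocysts, without overlap, as did 11.9% of genes tested. This difference of -0.94 (interval -2.07 to 0.19) had an adjusted p of 0.302, and the median difference of all genes was -0.64, or -0.09 by the median ratio. The 3 control blastocysts held 0 or 1 Y-linked read and the 6 light ones at least 45, and the part of this was not tested. Neither of the later changes, from 8-cell to morula (1.42% of genes lower and 1.20% higher, 248 and 209 genes, or 169 and 288 by the median ratio) and from morula to blastocyst (1.45% and 0.119%, 245 and 20 genes, or 208 and 99), differed for a member, with 0 at an unadjusted p under 0.05 and 0 called by edgeR.

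Counting in single libraries limits what can be said of the low stages. One read was worth 0.266 to 3.89 normalised reads (median 0.655), so that values of a few units rest on a few reads, and intervals here cover the spread among libraries only. Reads were not counted by molecule, and fewer transcripts in a cell cannot be told apart from less RNA captured. H1foo, for example, held 0 to 4.59 normalised reads in the 4 control and 0 to 8.44 in the 8 light 8-cell libraries, and its difference of 1.04 had an interval of -0.64 to 2.72.

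Other genes of the pathways were described from lists chosen with earlier results of these data known. Of 30 partners of GDF9, BMP15 and KIT signalling, 24 could be tested between the control 2-cell and 4-cell stage, 14 were called lower and 3 higher (32.3% and 13.8% of all genes), with a median of -2.33 against -0.72 over all genes. Smad3, a mediator of the GDF9 signal, went from 427.9 ± 69.2 to 5.51 ± 5.67 (log2 -6.60, adjusted p = 9.12e-09), the BMP15 receptor gene Bmpr1b from 130.8 ± 80.8 to 1.42 ± 2.69 and the PI3-kinase subunit gene Pik3r1 from 296.9 ± 37.8 to 10.9 ± 11.1. The genes Sos1 and Grb2, which act below KIT, and the receptor gene Bmpr1a were called higher, Sos1 from 39.8 ± 19.2 to 343.2 ± 111. The most abundant of the list over all libraries were Cbl, a ubiquitin ligase that acts on KIT, and the phosphatase gene Ptpn11. Between light and control at the 2-cell stage 2 of 24 were called lower, Smad3 (-1.19) and the inhibitory Smad7 (-2.38), and 0 higher, against 4.96% and 5.53% of all genes. At the 8-cell stage 5 of 24 were called lower, led by Smad7 (-4.36), Cbl (-2.04) and Grb2 (-1.24), and 0 higher, against 3.30% and 5.91% of all genes. At the other 3 stages 0 of the list were called.

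Other egg coat and secreted genes were also mostly lower at the 4-cell stage. Of 12 listed 9 were in the table and 7 tested between the control 2-cell and 4-cell stage. Of these 5 were lower and 1 higher (32.3% and 13.8% of all genes), with a median of -2.68 against -0.72 over all genes. Oosp3, a neighbour in kind of Oosp1, went from 396.0 ± 132 to 8.62 ± 11.3 (-6.05, adjusted p = 6.75e-08), the calcium channel gene Itpr1 from 279.6 ± 57.8 to 19.1 ± 12.3, and Izumo1r, the sperm receptor of the egg, from 33.3 ± 19.2 to 1.47 ± 3.59. Cd9, needed on the egg for fusion with sperm, was higher at the 4-cell stage (513.3 ± 230 against 59.3 ± 36.2). Oosp3 and Itpr1 were also lower in light 2-cell embryos, by -2.37 and -1.04, and Cd9 was higher by 1.97, and again at the 8-cell stage by 1.55.

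Of 10 oocyte transcription factors 7 were tested at the same control step. Of these 5 were called lower and 0 higher (32.3% and 13.8% of all genes), with a median of -1.92 against -0.72 over all genes. Foxo3, which holds follicles dormant, went from 1790 ± 318 to 163.0 ± 79.3, Lhx8 from 91.0 ± 45.8 to 0.842 ± 1.33 and Nobox from 38.1 ± 21.4 to 2.53 ± 5.48, while Figla was near 0 in every group, at most 1.42 on average. In light embryos Foxo3 was lower (-1.38) and Taf4b higher (1.04) at the 2-cell stage, Gata4 (1.90) and Taf4b (1.54) were higher at the 4-cell stage, and Pou5f1 was higher at the 8-cell stage (2.07) and lower at the blastocyst (-1.23). A list of linker histones other than H1foo showed 3 of 7 lower and 0 higher at the control 2-cell to 4-cell step. They were H1f0 (-5.01), Hist1h1a (-3.86) and H1fx (-2.59). Over all genes 32.3% were called lower and 13.8% higher there, and the median of the list was -0.04 against -0.72. At the control step from 8-cell to morula 4 of 7 were higher and 0 lower, against 6.84% and 7.49% of all genes. Hist1h1e (4.02), Hist1h1c (2.53) and Hist1h1b (2.73) were higher in light than in control 8-cell embryos. These were 3 of 7, against 5.91% of all genes called higher. How fully histone RNAs were captured in these libraries was not tested.

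All 19 further stored RNAs of the oocyte were tested at the control 2-cell to 4-cell step. Of these 16 were lower and 1 higher (32.3% and 13.8% of all genes), with a median of -4.50 against -0.72 over all genes. Btg4, an adaptor of maternal RNA decay, went from 2184 ± 862 to 12.0 ± 10.2 (-7.66, adjusted p = 9.60e-11), the survival gene Bcl2l10 from 1705 ± 890 to 13.3 ± 8.97 and the ubiquitin ligase gene Rfpl4 from 843.4 ± 323 to 3.28 ± 2.99. Khdc3 was higher (2.86). In light 2-cell embryos 8 of the 19 were lower and 0 higher (4.96% and 5.53% of all genes), with a median of -0.94 against a median of all genes close to 0, led by Bcl2l10 (-3.04), Rfpl4 (-1.95) and Nlrp4f (-2.07). Khdc3 was the 1 gene called at the 8-cell stage, higher by 2.74, and 0 of the tested genes of this list were called at the 4-cell stage, the morula or the blastocyst.

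At the 2-cell to 4-cell step of light embryos, where 29.0% of all genes were called lower and 7.43% higher, the same lists had 12 of 26 signalling partners lower and 2 higher, 5 of 7 egg coat and secreted genes lower and 1 higher, 3 of 7 transcription factors lower and 0 higher, and 18 of 19 stored RNAs lower and 1 higher. The list of linker histones had 2 of 7 lower and 4 higher there, but many of these genes are close copies and reads could have been split among them. At each later step of either condition a list had at most 6 genes called lower and at most 4 higher. These were 6 of 16 stored RNAs and 4 of 7 linker histones, both at the control step from 8-cell to morula. Over all genes 7.49% were called lower and 6.84% higher at that step. The interaction of the first step called 3 of 26 signalling partners, 2 of 8 transcription factors, 2 of 7 histones and 4 of 19 stored RNAs higher and 1 of 8 egg coat genes lower. Over all genes 1.63% were called higher and 1.45% lower there. The 3 later interactions called at most 3 genes of a list lower and at most 1 higher. Those lower were 3 of 26 signalling partners from 4-cell to 8-cell and 3 of 7 linker histones from 8-cell to morula. Over all genes 2.11% and 1.42% were called lower at these 2 steps, and 0.119% to 1.70% higher over the 3 interactions.

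Patterns most like the mean of the 8 members were sought over the 10 group means of log2 values among 12979 genes with a group mean of 10 or more. The nearest named genes were Mbtd1 (Pearson r = 0.996), Strn, Dtx2, Kif17, Bmi1, Ermp1, D6Ertd527e, Ireb2 and Mknk2 (r = 0.989). These are descriptions over 10 points that share the same drop after the 2-cell stage. Single members were nearest to Usp38 (Gdf9), Myo16 (Bmp15), Lrrc8b (Zp1), Spire1 (Zp2), Anp32e (Zp3), Nanos2 (Oosp1), Atf2 (Kit) and Sphk1 (H1foo), with r between 0.988 for Anp32e and 0.996 for Myo16. Among the members Kit (r = 0.995), Zp1 (0.994) and Gdf9 (0.993) were closest to the common profile, and Zp3 (0.835) and Oosp1 (0.910) were the farthest from it.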

How the data were processed

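RNA of 67 libraries was measured by SMART-seq2 and short-read sequencing. The submitters' processing notes name HISAT2, HTSeq 0.9.1 and the build mm9, without their settings. The deposited values are a signal per gene symbol that the authors obtained by dividing reads by 1 factor per library. Multiplying by that factor gave whole reads, within 0.01 read, in at least 99.97% of the values of every library. The study describes RPKM, but the values carry no division by length. The tests, limma on log2 values, were planned with the values taken as such reads, which was still to be checked then.

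Symbols matched GENCODE M21 (GRCm38) for 26329 of 26414 genes, and this annotation gave lengths and coordinates, while the reads were counted on mm9 by the submitters. Whether counting used strand is not given in the sources used here. Genes were tested if 3 or more libraries entering a fit exceeded 1, with limma 3.58.1 (R 4.3.3) on log2(value + 1), with Benjamini-Hochberg adjustment over all genes tested. A call needed an adjusted p under 0.05 and a fold of at least 2. Only the groups compared entered a fit, and light and control were compared in their change between stages by an interaction term. The script was tested on simulated data.

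Groups came from the sample labels. Members and lists were chosen with earlier results of these data known. The members were always named. From each list the text names up to 2 genes of the highest mean and up to 3 called genes of smallest p in each direction, and predicted genes are not named. A gene that the rule names is not reported here. Likeness is Pearson's r over 10 group means. The closest pair of libraries in a group differed beyond counting noise (chi-square per degree of freedom at least 6.64), so that none was taken for a copy. Same-numbered libraries of compared groups had correlations of deviations between -0.09 and 0.07, and the numbers were not taken as pairs.

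Alternatives were a pseudocount of 0.1, no filter, scaling by the median ratio or to the total outside 2 ribosomal genes, 1 fit over all libraries, edgeR 4.0.16 (quasi-likelihood) on the recovered reads, a block for the number in the labels, and fits lacking 1 library. In edgeR 5613 genes were lower and 2665 higher between control 4-cell and 2-cell, and 1106 lower and 1056 higher between light and control at the 2-cell stage. Leaving out light 2-cell libraries 15 and 16 together was added after seeing the data. The p-values measure the spread between libraries, which may be cells of shared embryos.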

Additional observations from a re-analysis of the deposited data

Results flagged for a closer look

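The change of Bmp15 from the 2-cell to the 4-cell stage differed between light and control embryos by 3.03 on the log2 scale, by the interaction term of limma (adjusted p = 0.00610). Every one of the 6 light libraries was below every one of the 7 control libraries at the first of these stages, and the groups overlapped at the second.

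In 4 of 64 groups of 4 to 10 libraries, 1 library stood apart from the rest by Dixon's criterion, which chance alone gives in about 1 in 20 groups, or 3.2 here. Light 4-cell library 13 was lowest both for Bmp15, with 8.813 normalised reads (next 26.2), and for Kit, with 13.22 (next 33.9). Light blastocyst library 29 was the only light blastocyst with reads of Zp1, at 0.3202 normalised reads. Control 8-cell library 1 was the only one of its group with reads of Oosp1, at 1.851. The last pair of values are a few reads each.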

How the results depend on the processing

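Limits are given first. Stages after the 4-cell stage rest on few reads per gene, the control blastocyst and 8-cell groups hold 3 and 4 libraries, and which libraries share an embryo is not given. For members that passed the threshold in neither setting, only the side of the threshold was compared. No difference that passed changed its sign under any alternative, and where a cause is not stated it was not tested.

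Of the 8 members, the number called lower from control 8-cell to morula was 3, and became 0 with a pseudocount of 0.1 and 0 with edgeR. From light 4-cell to 8-cell it was 4, and became 0 by the median ratio, 0 on the total outside the ribosomal genes and 0 with edgeR. Between light and control at the 2-cell stage 2 became 1 in 1 fit over all libraries, 3 by the median ratio, on the total outside the ribosomal genes and in edgeR, and 5 without light libraries 15 and 16. From light 2-cell to 4-cell 8 became 7 with a pseudocount of 0.1, no filter, either other scaling, 1 fit or edgeR, Zp3 being lost. At the 8-cell stage 0 became 1 by the median ratio, 1 on the total outside the ribosomal genes and 1 in 1 fit. In the change from 2-cell to 4-cell 1 member was called higher, and 2 by the median ratio and 2 without libraries 15 and 16. In the change from 4-cell to 8-cell 0 called lower became 1 under the same 3 alternatives as at the 8-cell stage. Leaving out 1 library gave 0 to 3 from control 8-cell to morula, 2 to 4 between light and control at the 2-cell stage, 0 to 1 at the 8-cell stage, 1 to 2 higher in the change from 2-cell to 4-cell, and 0 to 2 lower in the next change. From light 2-cell to 4-cell 6 of the 8 were still called without libraries 15 and 16, Zp2 (adjusted p = 0.0899) and Zp3 (0.0734 in limma) being lost.

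The replicate block fits a term for each library number, so that a number occurring once among the groups compared adds nothing to a difference. With this block 0 members were called from control 8-cell to morula, 0 from light 2-cell to 4-cell and 0 from light 4-cell to 8-cell. The count was also 0 from light 8-cell to morula and 0 between light and control at the 2-cell stage. Bmp15 differed at that stage by -2.54 (adjusted p = 0.105 in limma). The interaction of Bmp15 from 2-cell to 4-cell was 4.12 in the block (adjusted p = 0.0314 in limma). Same-numbered libraries did not deviate together (correlations -0.09 to 0.07), and fewer libraries inform the difference. No block could be fitted where the groups share fewer than 2 numbers.

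Counts of all genes called moved by over 1.5 times in several comparisons. In 1 fit over all libraries 847 became 1950 from control 4-cell to 8-cell (187 in edgeR), 2145 became 3592 from 8-cell to morula, 1775 became 3190 from morula to blastocyst, 1944 became 3043 between light and control at the 2-cell stage, 218 became 742 at the 4-cell stage (53 with no filter) and 179 became 981 at the morula. In edgeR 1602 became 247 from light 4-cell to 8-cell and 680 became 151 between the blastocysts. The changes from 2-cell to 4-cell (627, 407 to 1522) and from morula to blastocyst (265, 152 to 463) moved too. The most extreme counts with 1 library left out were 65 and 771 for 218 (control 4-cell 5 and 3), 89 for 680 (control blastocyst 2), 340 for 847 (control 8-cell 3), 1396 for 2145 (control 8-cell 2), 865 for 1775 (control blastocyst 3), 82 for 179 (light morula 12), 314 and 965 for 627 (light 2-cell 12 and control 4-cell 3), 971 for 646 (control 4-cell 3) and 156 for 265 (control blastocyst 2).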
